A study of Mus musculus with 13 samples.

Results

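Steroid hormone receptors are transcription factors that are switched on by a steroid, and 5 of them were followed here together with Greb1, a gene that estrogen receptor signalling switches on. The members were taken by symbol from the deposited expression table: Esr1 (estrogen receptor alpha), Esr2 (estrogen receptor beta), Pgr (progesterone receptor), Nr3c1 (glucocorticoid receptor), Nr3c2 (mineralocorticoid receptor) and Greb1. All 6 were present among the 53465 genes listed. RNA-seq had been carried out on bulk tissue of 10 MP tumors (MP1 to MP10) and 3 normal ovaries (WT1 to WT3) from C57BL/6 wild-type (WT) mice labelled as not treated. MP tumors are electroporation-based genetically engineered mouse models (EPO-GEMMs): the ovary of a C57BL/6 female of 8 to 12 wk received a MYC transposon and a vector carrying Cas9 and an sgRNA against Trp53. The plasmids can enter more than 1 cell type at the site, and each library also holds the stroma and any normal ovary left in the piece, so that fewer cells of a type and less RNA per cell cannot be told apart. The same protocol text, with its age of 8 to 12 wk, stands on the WT samples, and no source used here gives their age apart from it or says whether they were matched for cycle stage.

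A steroid receptor is held by chaperones until its ligand binds, then enters or stays in the nucleus, pairs up on DNA response elements and recruits coactivators or corepressors. In the ovary, estrogen receptor beta is known as the receptor of granulosa cells and estrogen receptor alpha is better known from theca, stroma and surface epithelium. The progesterone receptor is induced in granulosa cells by the ovulatory surge. Glucocorticoid and mineralocorticoid receptors bind nearly the same DNA element and share the ligand cortisol or corticosterone, from which the enzyme encoded by Hsd11b2 protects the mineralocorticoid receptor. Estrogen receptor alpha is also commonly present in human high-grade serous ovarian carcinoma (HGSOC).

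Levels are given in TPM, a unit of transcript abundance that corrects for gene length and sums to 1000000 in each library. Reads per library, worked back from the table, came to between 31445004 and 64013840 in WT ovaries and between 3892690 and 19906507 in MP tumors, so low values were less precise in tumors. Libraries fell into 3 sets by a number that their names share, called batches here, although no source used here says what that number stands for. Batch 1 held the 3 WT ovaries and MP1 to MP3, batch 2 held MP4 to MP6 and batch 3 held MP7 to MP10. No WT ovary was in batches 2 and 3, and only within batch 1 can condition and batch be told apart. A median tested gene was 0.58 lower in tumors on the log2 scale and 1.19 lower within batch 1, and under median-of-ratios scaling it stood at -0.023. Trp53, the target of the sgRNA, had 83.7 ± 2.61 TPM (SD, n = 3 ovaries) in normal tissue and between 4.30 and 26.0 TPM in MP1 to MP9, whereas the library labelled MP10 had 187 TPM. In MP2, the 10 most abundant genes took 55.1% of all TPM. The tissue labels were set against marker lists. Granulosa cell markers summed to between 4430 and 8272 TPM in WT ovaries and between 39.2 and 2302 TPM in tumors, and theca and luteal cell markers to between 25653 and 28736 TPM and between 12.4 and 1343 TPM. Epithelial and HGSOC markers summed to between 290 and 321 TPM in WT ovaries and lay above every WT ovary in 3 tumors (MP4, MP5 and MP9) and below every WT ovary in the other 7, so most tumors did not carry more epithelial marker RNA than a whole ovary.

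**Figure D1:**
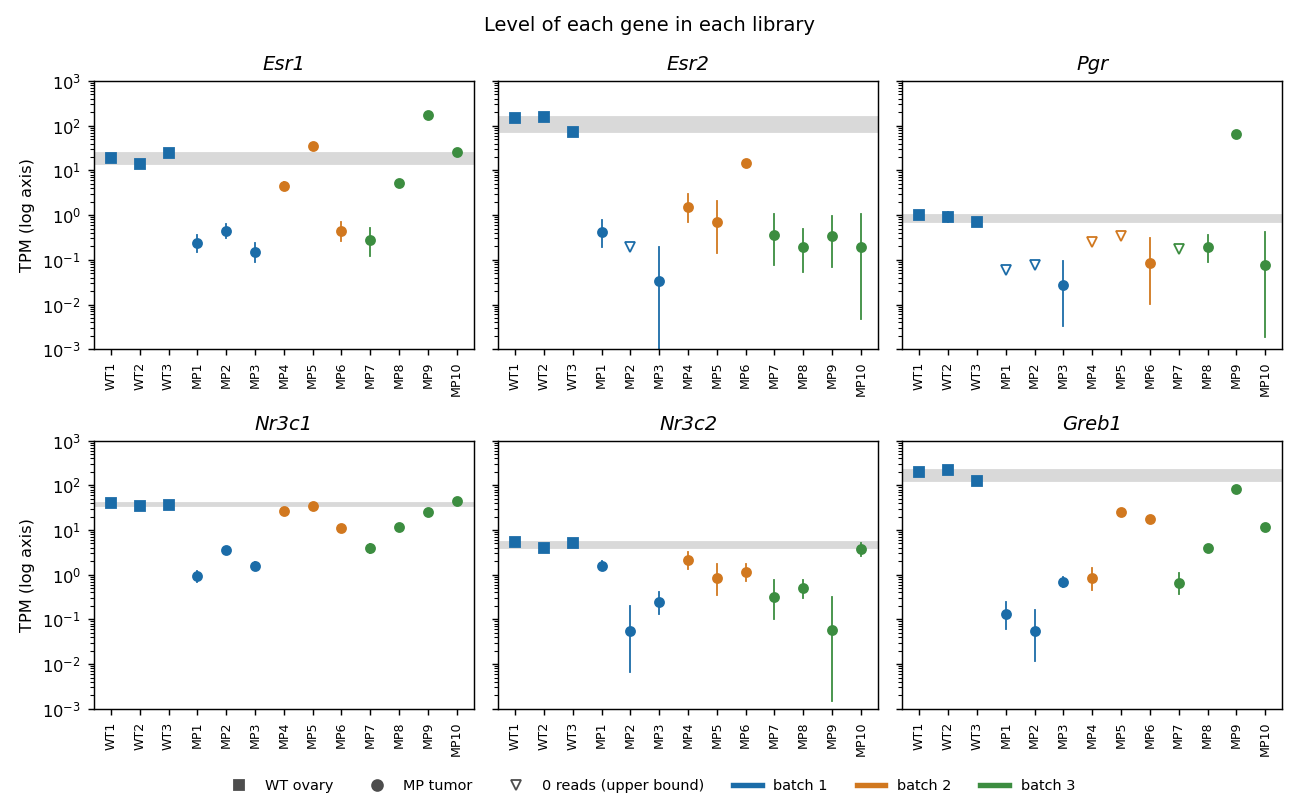
TPM of each gene (log axis) in the 3 WT ovaries (squares) and 10 MP tumors (circles), coloured by batch (a number shared in the library names), with 95% Poisson intervals of the reads and gray bands for the range of the WT ovaries. Open triangles mark libraries with 0 reads and stand at the upper bound of the interval. Esr2, Nr3c2 and Greb1 lie under the band in all 10 tumors, while Esr1 and Pgr reach 174 and 66.0 TPM in MP9.

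Of the 6 genes, 3 (Esr2, Nr3c2 and Greb1) were lower in every MP tumor than in every WT ovary, as were 16.4% of all tested genes, and none was higher in every tumor than in every ovary, where 3.02% of all tested genes were. In the limma test across all 17277 tested genes, the same 3 fell among the 5 members tested, where 14.3% of all tested genes fell and 2.51% rose. With median-of-ratios scaling, which divides each library by its median ratio to a common reference, 11% fell and 7.37% rose. The 3 WT ovaries alone were enough to pass the filter on low values (1 TPM or more in 3 or more libraries). Genes close to 0 in tumors were thus kept, among them Esr2, which reached 1 TPM in 2 tumors. The shares above, and the limma P values of such genes, are a description. Pgr did not pass the filter.

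Esr2 had the lowest log2 fold change of the 5 members tested over all 10 tumors, while within batch 1 that of Greb1 was lower (-7.13 against -6.73). The receptor gene of Esr2 (ENSMUSG00000021055, chromosome 12 from 76120419 to 76177259, minus strand, GRCm38) was at 147, 159 and 73.2 TPM in WT1, WT2 and WT3. In MP tumors the lowest value was 0, the median 0.351 and the highest 14.7 TPM. The groups did not overlap, and 8 tumors had under 1 TPM. Ovaries averaged 126 ± 46.5 TPM (SD, n = 3) and tumors 1.84 ± 4.52 TPM (SD, n = 10), which is -6.11 ± 0.68 (standard error) as a log2 fold change of TPM + 1 (limma adjusted P = 1.53e-05). Tumor values mostly rest on few reads: MP2 had 0, which allows up to 0.160 TPM at 3 reads, and MP5, MP7 and MP9 had 3 each. MP6 stood apart with 139 reads and 14.7 TPM (95% Poisson interval 12.3 to 17.3, counting error only), 9.58 times the next tumor, MP4. Foxl2, the transcription factor that maintains granulosa cell identity, was at 49.5 TPM in MP6, 76.0 TPM in MP4 and 39.3 TPM in MP5, against 152 to 183 TPM in WT ovaries, and the summed granulosa cell markers were at 1257, 2302 and 1761 TPM in the same 3 tumors. Those sums rested on few genes: Inha and Hsd17b1 made up 84.1% in MP6, and Inha and Amhr2 90.3% in MP4 and 86.6% in MP5. In MP6 each of the 12 granulosa cell markers was below every ovary, and in MP4 and MP5 10 of 12 were. The library labelled MP10 had a granulosa marker sum of 1393 TPM, above that of MP6, with Esr2 at 0.191 TPM on 1 read. The part of granulosa cells in the level of Esr2 was not tested. Tumors of batch 1 alone gave -6.73 (limma adjusted P = 1.68e-05), where 57.3% of all tested genes fell and 6.44% rose, and tumors of batches 2 and 3 against the same ovaries gave -5.85 (limma adjusted P = 0.000353), where 13.5% fell and 4.68% rose.

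Greb1, which encodes a coactivator of estrogen receptor alpha and is among the most direct estrogen response genes, was the most abundant of the 6 genes in each WT ovary. The gene (ENSMUSG00000036523, chromosome 12 from 16670615 to 16800886, minus strand) was at 199, 224 and 122 TPM in WT1, WT2 and WT3. In tumors it ranged from 0.0564 TPM in MP2 through a median of 2.38 TPM to 84.8 TPM in MP9. No tumor reached the lowest ovary, and MP9 came closest, at 1.44 times less. Ovaries averaged 182 ± 53.3 TPM (SD, n = 3) and tumors 14.5 ± 26.2 TPM (SD, n = 10), a log2 fold change of -5.08 with a standard error of 1.17 (limma adjusted P = 0.00839). Tumor values rested on between 3 reads in MP2 (95% Poisson interval 0.0116 to 0.165 TPM) and 2159 reads in MP9. It was at 0.691 TPM or less in batch 1, at 0.837, 17.5 and 25.3 TPM in batch 2 and between 0.646 and 84.8 TPM in batch 3. Greb1 fell by 7.13 on the log2 scale within batch 1 (limma adjusted P = 1.57e-05), where 57.3% of all tested genes fell. It showed -4.20 for the tumors of batches 2 and 3 (limma adjusted P = 0.0204), where 13.5% fell. The call was lost when WT2 was left out (log2 fold change -4.90, limma adjusted P = 0.0523). The antisense gene Gm48140 shares up to 304 bases with an exon of Greb1 in GENCODE M21, and no source used here gives the strand setting of the counting.

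Nr3c2, the receptor for aldosterone, was lower in tumors from a low starting level. It is encoded on chromosome 8 (ENSMUSG00000031618, from 76899442 to 77245012, plus strand). The bidirectional RNA gene Gm10649, which shares up to 155 bases with an exon, was at 0 in all libraries but MP1 (0.0345 TPM). WT1, WT2 and WT3 had 5.41, 3.92 and 5.16 TPM. Tumors had between 0.0556 TPM in MP2 and 3.77 TPM in the library labelled MP10, with a median of 0.680 TPM. The ranges did not overlap, but the highest tumor lay only 1.04 times under the lowest ovary, and its Poisson interval of 2.67 to 5.18 TPM reached over that ovary. Nr3c2 fell by 1.66 on the log2 scale, with a standard error of 0.44 (limma adjusted P = 0.0183). This call depended on the scaling: it was lost under median-of-ratios scaling (-1.19, limma adjusted P = 0.0546) and under quantile normalization (-0.82, limma adjusted P = 0.162). Leaving out any of the 3 WT ovaries also lost it, with limma adjusted P = 0.0956 without WT1, limma adjusted P = 0.0597 without WT2 and limma adjusted P = 0.0894 without WT3. It held within batch 1 (-1.94, limma adjusted P = 0.00213), where 57.3% of all tested genes fell. It also held for the tumors of batches 2 and 3 (-1.54, limma adjusted P = 0.0369), where 13.5% fell.

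To show the DNA next to the starts of Esr2 and Greb1, which were each lower in every tumor than in every ovary, and of Pgr, which was high in MP9 alone, the 250 bases before their RefSeq start sites are printed 5′ to 3′ on the gene's strand (RefSeq, GRCm38.p6), chosen because these windows touch no exon of GENCODE M21. They were searched on both strands for the palindromic estrogen response element GGTCANNNTGACC, for its core GGTCA, which the full element contains, and for the element GNACANNNTGTNC bound by progesterone, glucocorticoid and mineralocorticoid receptors. Capitals mark GGTCA or its reverse complement TGACC. Windows lie at chr12:76177260-76177509 (minus strand) for Esr2, chr12:16800887-16801136 (minus strand) for Greb1 and chr9:8899583-8899832 (plus strand) for Pgr.
Esr2: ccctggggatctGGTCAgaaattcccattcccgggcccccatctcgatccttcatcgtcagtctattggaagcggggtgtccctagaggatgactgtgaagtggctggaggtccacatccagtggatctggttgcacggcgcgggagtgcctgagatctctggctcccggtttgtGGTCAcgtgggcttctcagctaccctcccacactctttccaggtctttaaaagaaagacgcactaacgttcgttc
Greb1: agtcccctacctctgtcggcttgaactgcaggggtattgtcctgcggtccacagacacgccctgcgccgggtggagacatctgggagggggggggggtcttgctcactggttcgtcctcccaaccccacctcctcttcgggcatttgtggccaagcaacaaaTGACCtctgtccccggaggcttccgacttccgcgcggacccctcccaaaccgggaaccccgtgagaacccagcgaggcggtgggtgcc
Pgr: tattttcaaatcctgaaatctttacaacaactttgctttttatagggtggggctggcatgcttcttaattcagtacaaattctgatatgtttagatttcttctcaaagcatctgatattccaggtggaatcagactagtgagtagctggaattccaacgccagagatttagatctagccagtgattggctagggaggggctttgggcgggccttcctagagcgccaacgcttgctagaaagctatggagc
Neither full element was found in these 3 windows. Among the windows of all 32851 RefSeq promoters in the table, 0.0639% held GGTCANNNTGACC, 0.387% held GNACANNNTGTNC and 35.2% held GGTCA. The core occurred at 238 and 75 bases before the start of Esr2 and at 88 bases before that of Greb1, and not in the Pgr window. A second RefSeq start of Greb1, whose window at chr12:16757240-16757489 touches an exon and is not printed, had the core at 194 and 85 bases. The Greb1 window had 65.2% G and C bases and 16 CpG dinucleotides, the Esr2 window 56.4% and 12, and the Pgr window 43.6% and 4, where the median of all windows was 52.4% and 6. These matches describe the letters of the windows and no binding was measured.

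Esr1 did not move in a single direction. The gene (ENSMUSG00000019768, chromosome 10 from 4611593 to 5005614, plus strand) was at 19.2, 14.0 and 24.0 TPM in WT1, WT2 and WT3. In tumors the lowest value was 0.150 TPM in MP3, the median 2.51 TPM and the highest 174 TPM in MP9. Of the 10 tumors, 7 were below every WT ovary and 3 were above: MP5 with 34.4 TPM, MP9 with 174 TPM and the library labelled MP10 with 26.2 TPM. MP9 exceeded the highest WT ovary 7.26-fold, on 6329 reads, while MP1, MP2, MP3, MP6 and MP7 had 0.448 TPM or less. Ovaries averaged 19.1 ± 5.005 TPM (SD, n = 3) and tumors 24.6 ± 54.0 TPM (SD, n = 10), and the log2 fold change of -1.86 did not pass the test (95% interval -4.71 to 0.999, limma adjusted P = 0.338). Within batch 1 all 3 tumors had 0.448 TPM or less. Esr1 fell there by 3.95 on the log2 scale (limma adjusted P = 2.30e-05), where 57.3% of all tested genes fell. In batches 2 and 3, with tumors from 0.272 to 174 TPM, the difference was -0.96 (limma adjusted P = 0.635).

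Nr3c1 varied least of the 6 genes among WT ovaries. It stood at 40.1, 35.1 and 35.9 TPM in WT1, WT2 and WT3, a coefficient of variation of 7.24%. In tumors it ranged from 0.937 TPM in MP1 through a median of 11.4 TPM to 44.4 TPM in the library labelled MP10. That library was above every WT ovary and the other 9 were below, with MP5 (34.3 TPM) close to the lowest ovary. Ovaries averaged 37.0 ± 2.68 TPM (SD, n = 3) and tumors 16.4 ± 15.4 TPM (SD, n = 10), and the log2 fold change of -1.82 did not pass the test (95% interval -3.70 to 0.06, limma adjusted P = 0.163). Within batch 1, where 57.3% of all tested genes fell, it fell by 3.74 on the log2 scale (limma adjusted P = 8.12e-05). The 3 tumors there had between 0.937 and 3.59 TPM. For batches 2 and 3 Nr3c1 differed by -0.996 (limma adjusted P = 0.259). A fit with limma-voom on the reads worked back from the table moved it past the threshold (log2 fold change -2.03, limma adjusted P = 0.0402), and limma-voom with median-of-ratios scaling did not (-1.50, limma adjusted P = 0.0886).

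Pgr was nearly absent outside MP9. The gene (ENSMUSG00000031870, chromosome 9 from 8899833 to 8968611, plus strand) was at 0.993, 0.915 and 0.684 TPM in WT1, WT2 and WT3, on 126, 72 and 114 reads. In tumors it was at 0 in 5 libraries, at 0.0267 TPM in MP3, 0.0831 TPM in MP6, 0.191 TPM in MP8 and 0.0752 TPM in the library labelled MP10, and at 66.0 TPM in MP9. MP9 held 1498 reads (95% Poisson interval 62.7 to 69.4 TPM), 66.4 times the highest WT ovary and 345 times the next tumor, and the other 9 tumors were below every ovary. A count of 0 allows up to 0.0488 TPM in MP1 and up to 0.277 TPM in MP5 at 3 reads, so in each of the 5 tumors at 0 the limit lay below the WT ovaries. An exact permutation test over the 286 ways to choose 3 of 13 libraries, 2-sided on the absolute difference in mean log2(TPM + 1), gave a difference of -0.24 (exact P = 0.906, where the smallest possible is 0.0035). Leaving out MP9 gave -0.84 (exact permutation P of 0.0045, which is the lower limit with 12 libraries), and within batch 1 it was -0.88, where 3 against 3 libraries cannot go below an exact P of 0.1.

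**Figure D2:**
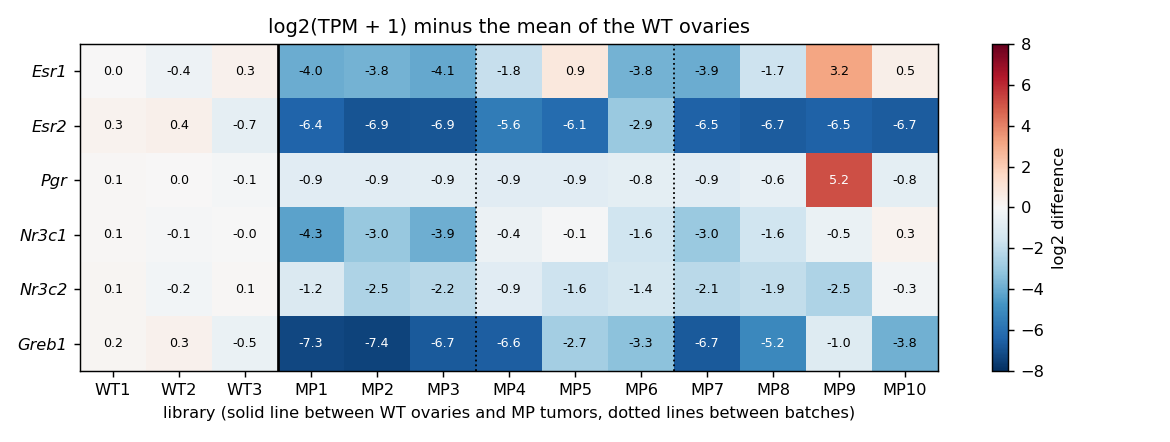
Difference of log2(TPM + 1) from the mean of the 3 WT ovaries for each gene (rows) in each library (columns), with red for higher and blue for lower and the value written in each cell. MP9 is the tumor in which Esr1 (174 TPM), Greb1 (84.8 TPM) and Pgr (66.0 TPM) are highest, and Esr2 is blue in all 10 tumors.

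The order of the genes differed between ovaries and tumors. In all 3 WT ovaries it ran Greb1, Esr2, Nr3c1, Esr1, Nr3c2 and Pgr from the highest TPM to the lowest. The WT ranges of Greb1 (122 to 224 TPM) and Esr2 (73.2 to 159 TPM) overlapped, and no other neighbours in that order did. Among tumors, Nr3c1 was the most abundant of the 6 in 6 tumors, Esr1 in 2 (MP5 and MP9), Greb1 in MP6 and Nr3c2 in MP1. MP9 was the tumor with the highest level for 3 of the 6 genes (Esr1, Pgr and Greb1), and it was the highest tumor for 23.2% of all tested genes.

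MP9, MP6 and the library labelled MP10 held the highest tumor values of the 6 genes, and MP5 the second highest of Esr1, Nr3c1 and Greb1. Their marker levels stood beside these as follows. Pax8, a transcription factor of the fallopian tube lineage and an HGSOC marker, was at 23.2 TPM in MP9, at 1.57 TPM in MP5 and at 0.133 TPM or less in the other 8 tumors and in the WT ovaries. Stromal fibroblast markers (Pdgfra, Pdgfrb, collagens, Dcn, Lum and Tcf21) summed to 4725 TPM in MP9 and 2506 TPM in MP5, above the 1502 to 2499 TPM of WT ovaries, and to between 89.0 and 646 TPM in the other 8 tumors. Of these 8 markers, 5 were above every ovary and 3 below in MP9, and 3 were above and 5 below in MP5, where Col1a1 and Col3a1 made up 72.3% of the sum. Other cell types' markers were also higher in these 2 tumors than in the other 8: endothelial markers summed to 153 TPM in MP9 and 189 TPM in MP5 (269 to 283 TPM in WT ovaries) and leukocyte markers to 188 and 222 TPM (141 to 289 TPM in WT ovaries), while smooth muscle markers were highest in MP5, at 1267 TPM. The Wilms tumor gene Wt1, a marker of ovarian surface epithelium and HGSOC, was at 130 TPM in MP9 and 163 TPM in MP5, against 45.5 to 49.6 TPM in WT ovaries. Pax8 and Wt1 were picked after their values were seen. Of the 11 epithelial and HGSOC markers, 7 were above every ovary in MP9 and 4 below, and 5 were above and 6 below in MP5, with Epcam, an epithelial adhesion molecule, at 4.43 TPM in MP9 and 3.49 TPM in MP5 against 35.3 to 48.6 TPM in ovaries. In the library labelled MP10, granulosa cell markers summed to 1393 TPM and theca and luteal cell markers to 1343 TPM, the latter the highest of the tumors. Inha and Amhr2 made up 93.8% of the first sum and Hsd3b1 and Nr5a1 93.6% of the second, while 11 of 12 and 6 of 8 of these markers were below every ovary. The granulosa cell genes Cyp19a1 and Fshr were at 0 in 9 of 10 tumors each. The part of these markers' cells in the receptor levels was not tested.

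A TPM ratio within a library does not depend on its scaling, while the tested log2((TPM + 1) ratio) still does. Esr2 exceeded Esr1 7.65-fold, 11.4-fold and 3.05-fold in WT1, WT2 and WT3. In 7 tumors Esr1 exceeded Esr2, with a TPM ratio of Esr2 to Esr1 of 0.00192 in MP9 (on 3 Esr2 reads), while MP6 had 33.2. On the tested scale, which draws ratios of genes under 1 TPM toward 0, the mean was 2.62 ± 0.95 (SD, n = 3) in ovaries and -1.64 ± 3.01 (SD, n = 10) in tumors. The difference of -4.26 had an exact permutation P of 0.0385 (2-sided) and an adjusted P of 0.115 over the 3 ratios tested, and so did not pass the correction, with 9 of 10 tumors below every ovary. Of 17 alternatives it passed only without MP6 (-4.82, exact permutation test, adjusted P = 0.0409). MP6 was the 1 tumor above every ovary, so leaving it out was bound to widen the difference. The ratio of Pgr to Esr1 differed by 1.62 (exact permutation test, adjusted P = 0.241), a direction that the pseudocount sets and that is not read here: in 5 tumors Pgr was at 0 and the TPM ratio thus below every ovary, yet 8 tumors were above every ovary on the tested scale. The ratio of Nr3c2 to Nr3c1 differed by 0.16 (exact permutation test, adjusted P = 0.867), with 5 tumors above and 5 below every ovary on the tested scale. As a TPM ratio, 2 tumors were above and 8 below every ovary: Nr3c2 was 0.112 to 0.144 times Nr3c1 in WT ovaries, 1.70 times in MP1 and 0.00226 times in MP9, there on 1 Nr3c2 read. The direction of that difference turned with a pseudocount of 0.1 (-0.73) and for the tumors of batches 2 and 3 (-0.54). Within batch 1 the difference was 1.795, where 3 against 3 libraries cannot go below an exact P of 0.1. A further ratio, chosen after its values were seen, is a description: Greb1 exceeded Esr1 10.4-fold, 16.0-fold and 5.08-fold in WT1, WT2 and WT3, was below Esr1 in 7 tumors, and exceeded it 39.7-fold in MP6.

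**Figure D3:**
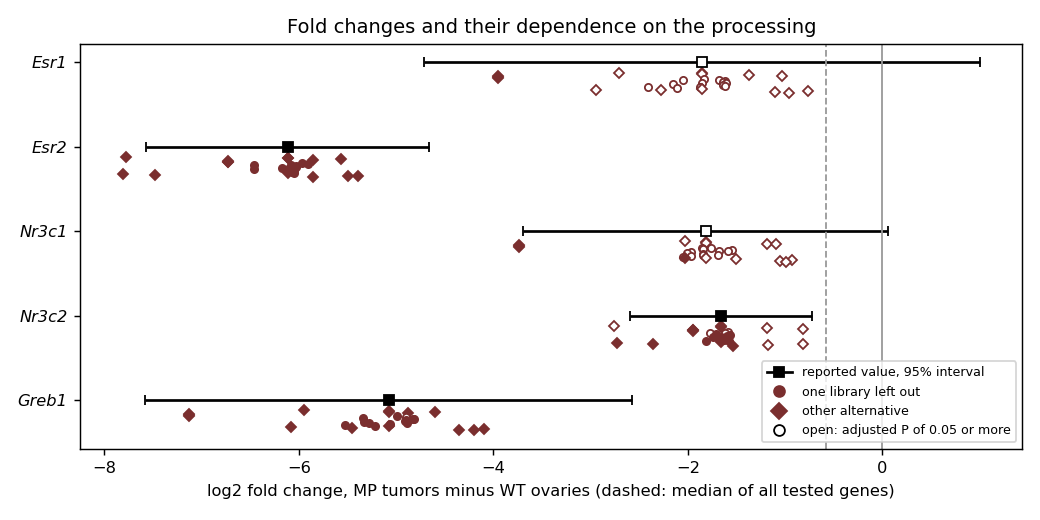
Log2 fold change of the 5 genes tested with limma (squares, with 95% intervals) and its value when a library was left out (circles) or another processing was used (diamonds). Open symbols mark an adjusted P of 0.05 or more, and the dashed line is the median of all tested genes. Esr2 stays between -7.81 and -5.39 with filled symbols throughout, while Nr3c2 has filled and open ones.

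Over the 10 tumors, 15 pairs of the 6 genes were compared by correlation of log2(TPM + 1). Esr1 and Greb1 correlated over all 10, across batches (Pearson r = 0.821, permutation P = 0.0039, adjusted P = 0.0435 over the 15 pairs), but the rank correlation did not pass the correction (Spearman rho = 0.733, permutation P = 0.0202, adjusted P = 0.116). Without MP5 and MP9, the tumors farthest from the median of Esr1, r was 0.514, so the relation rested in part on them. Esr1 and Nr3c1 gave r = 0.805 (permutation P = 0.0058, adjusted P = 0.0435) and rho = 0.842 (permutation P = 0.0034, adjusted P = 0.0510), and r was 0.865 without MP5 and MP9. Esr1 and Pgr gave r = 0.693 (permutation P = 0.0322, adjusted P = 0.0966), with r at 0.461 without MP5 and MP9 and at 0.199 without MP9 alone, so that relation rested on MP9. Among the other 12 pairs the smallest adjusted permutation P for r was 0.0791, below that of Esr1 and Pgr. It was shared by Nr3c1 and Greb1 (r = 0.724, and 0.736 without MP9) and by Pgr and Greb1 (r = 0.649, and 0.383 without MP9). Batches hold 3, 3 and 4 tumors, and all 3 tumors of batch 1 were low in Esr1, Nr3c1 and Greb1. With batch means removed and tumors permuted only within batches (864 arrangements, added after seeing the data), r was 0.745 for Esr1 and Greb1 (exact permutation P = 0.0972, adjusted P = 0.365) and 0.806 for Esr1 and Nr3c1 (exact permutation P = 0.0382, adjusted P = 0.286). No pair passed the correction in that test, where the smallest adjusted P was 0.156 (Esr2 and Nr3c1, exact permutation, r = -0.468). Over the 7 tumors of batches 2 and 3, r was 0.733 for Esr1 and Greb1 and 0.747 for Esr1 and Nr3c1, and median-of-ratios scaling over all 10 gave 0.760 and 0.715.

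**Figure D4:**
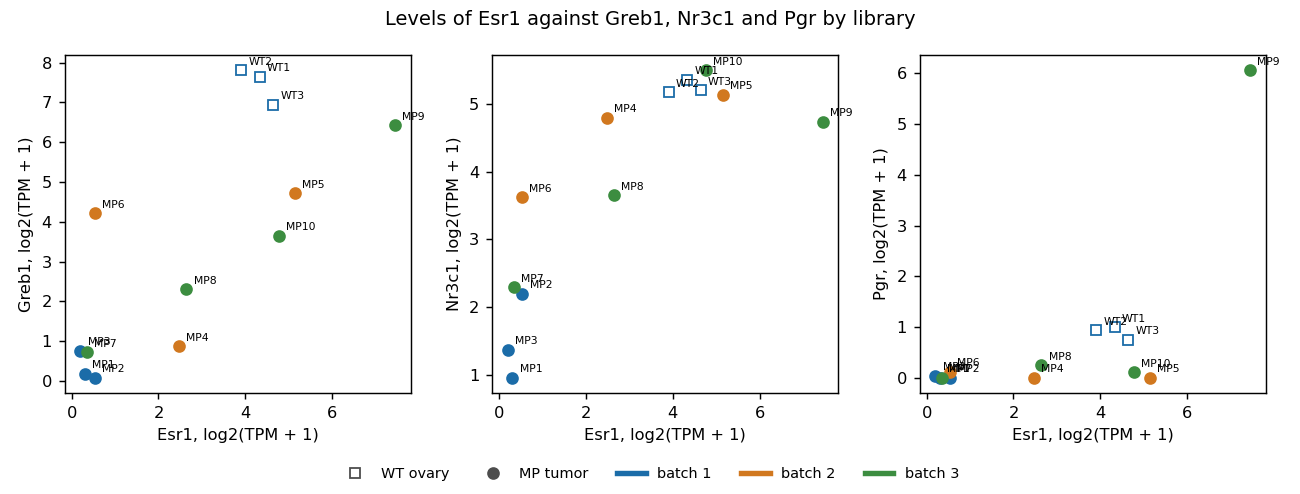
Log2(TPM + 1) of Esr1 (x axis) against Greb1, Nr3c1 and Pgr (y axes) in each library, with open squares for WT ovaries, filled circles for MP tumors and colours for batches. Pearson r over the 10 tumors was 0.821 for Greb1 and 0.805 for Nr3c1. MP6 has Greb1 at 17.5 TPM with Esr1 at 0.442 TPM, and MP9 lies alone in the Pgr plot.

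Among 10925 genes with a mean of at least 5 TPM in tumors, those whose pattern over the 10 tumors was most like that of Esr1 were Met (r = 0.976), the receptor of hepatocyte growth factor, Gabbr1 (r = 0.972) and Zfp503 (r = 0.971). For Nr3c1 they were Lrrk1 (r = 0.974), Crim1 (r = 0.968) and Arid5b (r = 0.968), and for Greb1 Mageh1 (r = 0.982), Zfp423 (r = 0.973) and Osbpl5 (r = 0.966). Without MP9 all 9 stayed at an r between 0.955 and 0.986. These are the largest of many correlations over the same 10 libraries and are given as a description.

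The partners, ligands and targets of these receptors were read from 9 lists, against the 14.3% of tested genes that fell, the 2.51% that rose and the median log2 fold change of -0.58. Of 10 related receptors tested, 4 fell, none rose and 6 did not pass, with a median of -1.17. The membrane progestin receptors Paqr7 (-2.91, limma adjusted P = 0.00928) and Paqr6 (-1.77, limma adjusted P = 0.0190) were among those that fell. Under median-of-ratios scaling 3 of the 10 fell and 1 rose, and within batch 1 the number that fell was 7, where 57.3% of all tested genes did.

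Genes for chaperones and coregulators were mostly not called. Of 16 receptor chaperones tested, 1 rose and 1 fell, with a median of 0.42 in tumors. Fkbp5, a cochaperone that restrains glucocorticoid receptor signalling and is itself a glucocorticoid target, fell from 615 ± 66.1 TPM (SD, n = 3) to a median of 48.5 TPM (log2 fold change -3.92, limma adjusted P = 0.00389). Ppid, another cochaperone, rose (1.38, limma adjusted P = 0.0280), and Hsp90aa1, the inducible HSP90, was at 247 TPM in ovaries and a median of 419 TPM in tumors and did not pass (0.74, limma adjusted P = 0.148). Median-of-ratios scaling gave 7 chaperones higher and 1 lower, against 7.37% and 11% of all tested genes. Within batch 1 it was 1 higher and 3 lower (median 0.072), and without MP2 it was 3 higher and 1 lower. Of 21 coactivators and corepressors, 2 rose and none fell (median -0.90): Prmt1, an arginine methyltransferase that also acts as a coactivator (1.38, limma adjusted P = 0.00764), and Phb2, a repressor of estrogen receptor activity (1.10, limma adjusted P = 0.0416). Ncoa1, the steroid receptor coactivator SRC-1, was below every ovary in all 10 tumors but did not pass (-1.99, limma adjusted P = 0.0535). Within batch 1, where 57.3% of all tested genes fell and 6.44% rose, 18 of the 21 coregulators fell and 1 rose. Without MP9, 3 of the 21 fell and 2 rose, and with median-of-ratios scaling 1 fell and 2 rose.

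Genes of partner factors and of ligand metabolism fell or did not pass. Of 9 pioneer and partner factors tested, 4 fell (median -2.21), among them Foxo1 (-4.81, limma adjusted P = 0.00394), Gata2 (-1.71, limma adjusted P = 0.00591) and Foxl2 (-3.58, limma adjusted P = 0.0202). Of 9 ligand metabolism genes, 5 fell (median -2.81). Cyp19a1, the aromatase that makes estrogens, was at 13.6 ± 5.27 TPM (SD, n = 3) in ovaries and at 0 in 9 of 10 tumors (limma adjusted P = 4.14e-08). It was under 1 TPM in every tumor and passed the filter through the ovaries alone, so this P value is a description. Akr1c18, which inactivates progesterone, had 3640 ± 2941 TPM (SD, n = 3) in ovaries and a median of 1.55 TPM in tumors (log2 fold change -9.52, limma adjusted P = 1.85e-05). Hsd11b2, named above, fell from 88.8 ± 49.8 TPM (SD, n = 3) to a median of 0.879 TPM (-5.27, limma adjusted P = 9.99e-05). Within batch 1, 7 of the 9 partner factors and 8 of the 9 ligand metabolism genes fell, against 57.3% of all tested genes. Foxl2, Cyp19a1 and Hsd17b1 are also granulosa cell markers.

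**Figure D5:**
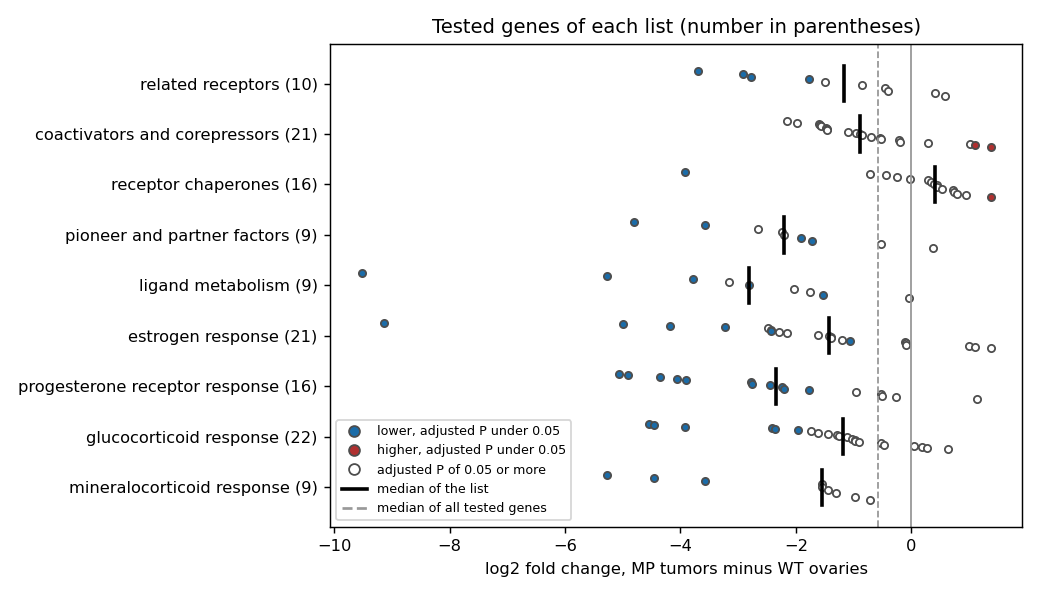
Log2 fold change of each tested gene in 9 lists, with the number of tested genes in parentheses, filled symbols for an adjusted P under 0.05 and vertical bars for the median of each list. The dashed line is the median of all tested genes, -0.58. The chaperone list has its median on the right of 0, at 0.42, and the ligand metabolism list has the lowest, at -2.81.

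Response genes of each receptor fell or did not pass. Of 21 estrogen response genes tested, 7 fell, none rose and 14 did not pass (median -1.42), with Sfrp4, a secreted WNT inhibitor (log2 fold change -9.14, limma adjusted P = 3.32e-08), Ltf, lactoferrin (-2.42, limma adjusted P = 0.000326), and Cyp1b1, an estrogen hydroxylase (-4.99, limma adjusted P = 0.00261), at the smallest P values. MP9 was the highest tumor for 9 of these 21 genes (42.9%, against 23.2% of all tested genes), and it was so for 9 of the 21 coregulators (42.9%) and 4 of the 9 partner factors (44.4%) too. Of 16 progesterone receptor response genes, 11 fell (median -2.34), led by Ihh, a progesterone target in the uterus (-5.07, limma adjusted P = 3.32e-08), Pparg (-4.06, limma adjusted P = 8.02e-05) and Runx2 (-4.90, limma adjusted P = 0.000122). MP9, the tumor with Pgr, was the highest tumor for 2 of these 16 genes (12.5%). Under median-of-ratios scaling 5 of the 21 estrogen and 11 of the 16 progesterone response genes fell, against 11% of all tested genes, and within batch 1 the counts were 15 and 14, against 57.3%. In each of these settings 1 estrogen response gene rose.

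Of 22 glucocorticoid response genes, 6 fell, none rose and 16 did not pass (median -1.18). Sgk1, a kinase induced by glucocorticoids and aldosterone, fell from 336 ± 43.7 TPM (SD, n = 3) to a median of 16.8 TPM (-4.47, limma adjusted P = 1.04e-05), and Rgs2 fell from 341 ± 91.4 TPM (SD, n = 3) to a median of 13.4 TPM (-4.54, limma adjusted P = 6.69e-05). Fkbp5, given above, had the next smallest P value. Metallothioneins Mt1 and Mt2 and the clock gene Per1, which glucocorticoids also induce, did not pass (limma adjusted P = 0.888 for Mt1, limma adjusted P = 0.833 for Mt2 and limma adjusted P = 0.967 for Per1). Of 9 mineralocorticoid response genes, 3 fell (median -1.54), which were Sgk1, Hsd11b2 and Rasd1 (-3.58, limma adjusted P = 0.0421). Without MP9 the number that fell was 5, and without MP2 it was 2. Sgk1, Fkbp5, Hsd11b2, Tsc22d3, Lcn2, Zbtb16 and Nrip1 each stand in 2 of the lists, so the counts share genes. Within batch 1, 18 of the 22 glucocorticoid and all 9 mineralocorticoid response genes fell, against 57.3% of all tested genes, and under median-of-ratios scaling 5 and 2 did, against 11%. The summed theca and luteal cell markers were also below every ovary in all 10 tumors, and their part in these counts was not tested.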

How the data were processed

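Bulk RNA-seq of 3 WT ovaries and 10 MP tumors was analysed. The authors deposited TPM values for 53465 mouse genes, 1 column per library, without pooling. The labels' processing notes name FastQC 0.11.5, Trimmomatic 0.36, STAR 2.5.3a, featureCounts 1.6.3 and mm10, while their extract protocol names a human build, HTSeq and RPKM; the table itself holds TPM of mouse genes. The strand setting of the counting is not given in the sources used here. Each library's TPM sums to 1000000, so a gene's value falls when others take a larger share. TPM times gene length gave whole multiples of 1 step for 100% of values (tolerance 0.01), from which reads were worked back for depth, for 95% Poisson intervals and for limits at 3 reads. Intervals and limits cover counting error only.

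The 17277 genes that reached 1 TPM in 3 or more libraries were tested as log2(TPM + 1) with limma 3.58.1 (trend and robust, R 4.3.3), all tumors against all ovaries, no covariate, Benjamini-Hochberg adjustment over all tested genes and a threshold of 0.05. Fold changes on this scale understate those of low genes, and P values measure the spread between these libraries. Pgr and the ratios were compared by exact permutation tests (2-sided), and pairs of genes with 100000 permutations. Named genes were the 6 members, Trp53, the 3 smallest P values in each list and the 3 genes most alike over tumors. 1 gene that this rule names is not reported here. Others (Mt1, Mt2, Per1, marker genes) were picked after their values were seen. Members and lists were chosen with earlier results of these data known. Alternatives varied pseudocount, filter, scaling, batch, replicate number, limma options and single libraries, and others added after seeing the data are named as such below. In simulated data of 17277 genes limma recovered 37 of 100 genes changed by 2 on the log2 scale and 96 of 100 changed by 5. It made 8 false calls among the unchanged genes. The values were drawn as independent and normal, with a common SD per gene in both groups and no batches, unlike these data. Promoters came from a RefSeq table of GRCm38.p6 (5 of 6 members matched), and gene overlaps from GENCODE M21. Python 3.11.15, pandas 2.3.3, scipy 1.17.1 and matplotlib 3.10.9 were used.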

Additional observations from a re-analysis of the deposited data

Results flagged for a closer look

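Among the 10 MP tumors, 5 of 10 measures had a library whose gap to its nearest neighbour took up more of the range than Dixon's critical value of 0.466 allows. Chance gives about 1 in 20 only where values follow a normal distribution, which TPM does not. Esr1 was at 174 TPM in MP9, Pgr at 66.0 TPM in MP9 and Greb1 at 84.8 TPM in MP9. Esr2 was at 14.7 TPM in MP6, and the log2 ratio of Greb1 to Esr1 was 3.68 in MP6. The measures share libraries and genes and are not independent. On the log2(TPM + 1) scale, tried after seeing the data, Esr2 (gap of 0.662 of the range) and Pgr (0.958) were past the critical value, and Esr1 (0.318) and Greb1 (0.269) were not.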

How the results depend on the processing

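Esr2 stayed lower and past the threshold under all 27 alternatives run, with log2 fold changes between -7.81 and -5.39. Greb1 did so except when WT2 was left out, with leave-out values between -5.52 and -4.82. Esr1 passed only within batch 1 or with batch as a covariate (-3.95 each). Nr3c1 passed only in these (-3.74 each) and in limma-voom (-2.03), but not in limma-voom with median-of-ratios scaling (-1.50). No WT ovary was in batches 2 and 3, so the batch covariate left the batch 1 difference, and the replicate block given below used the same libraries. These settings among the 27 thus repeat the same comparison. Nr3c2 lost its call with a pseudocount of 0.1 (-2.76), median-of-ratios scaling (-1.19), quantile normalization (-0.82), and, added after seeing the data, with trends on gene length (-0.82) or chromosome medians (-1.18) removed, and its values without 1 library ran from -1.81 to -1.57. Leaving out 1 library moved Pgr between -0.84 and -0.16, and a pseudocount of 0.1 gave -1.96. For batches 2 and 3, added after seeing the data, the Pgr difference reversed to 0.039. The ratio of Esr2 to Esr1 ranged from -4.82 to -3.66 without 1 library. In the other settings it ranged from -5.07 to -2.78, the latter within batch 1. The ratio of Nr3c2 to Nr3c1 reversed with a pseudocount of 0.1 (-0.73) and for batches 2 and 3 (-0.54). It was 1.795 within batch 1 and ran from -0.17 to 0.39 without 1 library. The cause of these changes was not tested.

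Genes called higher numbered 433 and genes called lower 2463. The number higher was 1274 with median-of-ratios scaling, 1904 with quantile normalization, 1112 within batch 1, 894 with batch as a covariate and 1876 with limma-voom, and, among the added settings, 2729 with limma-voom and median-of-ratios scaling, 1779 without length trends, 1730 without chromosome medians and 808 for batches 2 and 3. The number lower was 9902 within batch 1, 8534 with batch as a covariate and 4045 with limma-voom. Without 1 library they ran from 94 to 635 higher and from 1158 to 3264 lower, the fewest without a WT ovary (135, 153 and 94 higher without WT1, WT2 and WT3).

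WT1 to WT3 and MP1 to MP3 share replicate numbers. Deviations of same-numbered libraries correlated at -0.096, -0.021 and 0.0012, which gives no sign of a pairing but cannot exclude one. A replicate block over these 6 libraries gave log2 fold changes of -3.95 for Esr1 and -3.74 for Nr3c1, as within batch 1, -6.73 for Esr2, -1.94 for Nr3c2 and -7.13 for Greb1, with 1095 genes higher and 9838 lower. Depth limits values under about 1 TPM in tumors, where members often rest on 10 reads or fewer.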

Other observations

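In the library labelled MP10, the receptor tyrosine kinase gene Kit, found in oocytes and in several tumor types, was at 512 TPM. Kit ranged from 0.499 to 41.9 TPM in the other 9 tumors and from 15.5 to 19.4 TPM in WT ovaries. The other 9 oocyte markers summed to 3.13 TPM there, each of them below every WT ovary, with Zp1 and Zp2, which encode zona pellucida proteins, at 0. The same library held the highest Nr3c1 (44.4 TPM) and Nr3c2 (3.77 TPM) of the tumors and the 187 TPM of Trp53.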
